A study of Caenorhabditis elegans with 2 samples.

Results

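MicroRNA (miRNA) genes of the nematode Caenorhabditis elegans were examined for binding signal of CEH-9, a homeodomain protein, in whole L3 larvae. The members were all genes that Ensembl gives the biotype miRNA on build WBcel235, without those numbered mir-51 to mir-56. These were 254 of 261 miRNA genes. The 7 genes left out include mir-55b, which carries the number of mir-55. Names are those of Ensembl without the species prefix, and let-7, which Ensembl lists under a database ID, was named from RefSeq by its WormBase ID (WBGene00002285).

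Chromatin immunoprecipitation and sequencing (ChIP-seq) was done in strain OP202, whose genotype is unc-119(ed3) III; wgIs202. The line stably carries CEH-9 fused at its C-terminus to GFP and FLAG, and both samples came from L3 larvae of pooled sexes. They form 1 group, biological replicates 1 and 3, and no strain without the tag or other stage was compared here. The labels call the target ceh-9, but their free text describes both libraries as input, and the assay and antibody fields were followed here. The tagged copy comes from an inserted transgene in whole animals, so its cells of expression cannot be told from these files.

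A miRNA is cut from a hairpin within a longer primary transcript, and it pairs with target messages mainly through its seed, bases 2 to 8 of the mature strand. miRNAs with the same seed form a family. In C. elegans some miRNA genes are transcribed on their own, others lie in introns of protein-coding genes, and several sit in clusters that are processed from 1 transcript. The founding members lin-4 and let-7 time larval development. For nearly all members the annotated start is that of the hairpin, since only 3 of the 254 genes are longer than 200 bp, so a promoter of a long primary transcript can lie outside the window used here.

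The value of a gene was the highest signal value of the authors' peak caller among regions whose summit, the point of strongest signal, lay from 1000 bp upstream to 200 bp downstream of the start. The signal value has no stated unit, so it was used to order regions within a list, where rank 1 is the strongest. The pooled list held 10489 regions with signal values from 11.8 to 72.9, and each replicate list held 30000. Each list mixes peaks with background, as the authors name them. A q-value below 0.05 was reached by 28 regions of the pooled list. The corresponding number was 3048 for replicate 1 but 24 for replicate 3, so the libraries differ widely in this respect. With 1 group of 2 replicates no test over samples exists, so shares carry 95% Clopper-Pearson intervals over genes, silent on the spread between animals. These intervals, and that of a difference, treat genes as independent. Neighbouring genes can share a region, as mir-35 to mir-41 do, so the intervals are too narrow where such genes are counted. Read depth is unknown here.

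The mature strands of the families that the results turn on are shown first, from RefSeq on WBcel235, 5′ to 3′, with the seed in capitals. Both let-7 family genes on chromosome V and both lin-4 family genes are included, with let-7 and mir-84 for comparison.
let-7: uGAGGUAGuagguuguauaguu
mir-48: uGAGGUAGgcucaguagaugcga
mir-241: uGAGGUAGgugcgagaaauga
mir-84: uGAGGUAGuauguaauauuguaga
lin-4: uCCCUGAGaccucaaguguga
mir-237: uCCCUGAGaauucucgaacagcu
mir-35: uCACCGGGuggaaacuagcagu
mir-42: uCACCGGGuuaacaucuacaga
mir-87: gUGAGCAAaguuucaggugugc
mir-233: uUGAGCAAugcgcaugugcggga
mir-62: uGAUAUGUaaucuagcuuacag
mir-90: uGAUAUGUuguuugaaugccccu
mir-239a: uUUGUACUacacauagguacugg
mir-239b: uUUGUACUacacaaaaguacug
The seed is identical within each of these pairs or groups, and the full strands differ. Some bases outside the seed are also shared, as between mir-239a and mir-239b. Of the 254 members, 253 had a mature sequence in RefSeq, and 103 shared a seed with at least 1 other member.

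No member had a peak of the authors' reproducible set in its window (0 of 254, which allows a share of up to 1.18% at a limit of 3 counts, and 1.44% by the exact interval), where 0.0917% of all 46890 nuclear genes did. In the pooled list 51 members (20.1%, 95% interval 15.3 to 25.5) had a summit in the window. The background was 11.6% of all nuclear genes and 18.2% of the 9165 non-coding genes that are neither miRNA, piRNA nor pseudogenes. All nuclear genes include piRNA genes and pseudogenes, and the share of the 19973 protein-coding genes alone was 12.9%. The share of the miRNA genes was therefore above that of genes as a whole and close to that of other non-coding genes. In replicate 1, 88 members (34.6%) had one, against 33.9% of all genes and 40.1% of the other non-coding genes. In replicate 3, 108 members (42.5%) had one, against 28.0% of all genes and 38.2% of the other non-coding genes. Of protein-coding genes, 35.4% had one in replicate 1 and 31.2% in replicate 3. Against all genes, the share was thus higher in replicate 3 and in the pooled list, while the full replicate 1 list was near the background. When each replicate list was shortened to as many strongest regions as the pooled list holds, 48 members (18.9%, 14.3 to 24.3) had a summit in replicate 1, with 13.1% of all genes and 18.0% of the other non-coding genes. In replicate 3 there were 40 (15.7%, 11.5 to 20.8), with 10.4% and 16.2%. In these shortened lists both replicates were thus above all genes and close to other non-coding genes.

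Neighbouring genes share windows, so the 51 genes corresponded to 41 distinct pooled regions. Pooled signal values at the members ran from 11.9 to 26.3 with a median of 13.4 per gene, where all genes with a pooled region had a median of 14.3. Of the 51 genes, 19 (37.3%) had a value at or above the median of the whole pooled list, which 52.6% of all genes with a region reached. Counted once each, 18 of the 41 distinct regions (43.9%) reached it, and their median was 13.8. Replicate 1 showed the opposite order, with 56 of its 88 genes at or above the list median and a background of 52.8% (the median per gene was 7.03, and 6.08 for all genes). In replicate 3, 58 of 108 genes (53.7%) reached it beside 52.2% of all genes, with medians of 6.38 and 6.33. The lists thus gave no common order of member and all-gene values. Altogether 109 members had no summit in any of the 3 lists, 73 had one in 1 list, 42 in 2 lists and 30 in all 3. The pooled list is made from both replicates, so the 3 lists are not independent. The same split was not counted over all genes.

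Among the 1000 strongest pooled regions were those of 6 members (2.36%, with 1.41% of all genes and 3.21% of the other non-coding genes). In replicate 1 the number was 4 members (1.57%, with 1.5% of all genes and 2.9% of the other non-coding genes). In replicate 3 it was 7 (2.76%, with 1.12% and 2.08%). The interval of the members' share was 0.872 to 5.07% in the pooled list and 0.431 to 3.98% in replicate 1. In replicate 3 it was 1.12 to 5.6%. Each interval includes the share of the other non-coding genes, so members and other non-coding genes cannot be ordered here. The share of all genes lay inside the interval in the pooled and replicate 1 lists and at its lower limit in replicate 3. None of the 41 distinct pooled regions at members had a q-value under 0.05, and the smallest was 0.264 at mir-87. Such a region was found at 0.0618% of all genes and 0.218% of the other non-coding genes. In replicate 1, 10 members had a region with a q-value under 0.05, a share of 3.94%. This was beside 3.95% of all genes and 6.5% of the other non-coding genes. The 10 members were mir-48, mir-87, mir-8204, mir-75, lin-4, mir-85, mir-124, mir-238, mir-1828 and mir-8188. In replicate 3 there was 1 such member, mir-257, beside 0.0491% of all genes and 0.185% of the other non-coding genes.

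**Figure D1:**
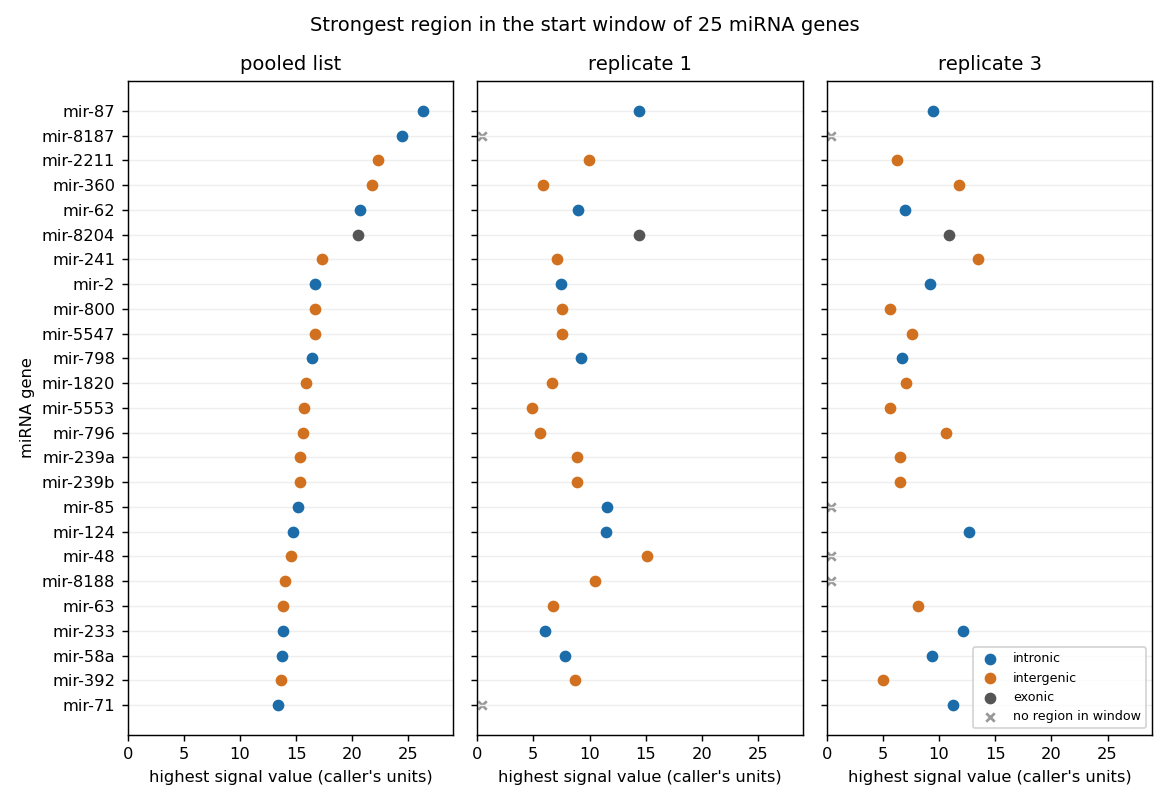
Highest signal value in the start window of the 25 miRNA genes with the highest pooled values, in the pooled list and in each replicate list (x axis, the caller's units). Points are coloured by gene position and a cross marks a gene with no region in its window. mir-87 is highest in the pooled list at 26.3, and mir-8187 has no region in its window in either replicate.

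The highest pooled value belonged to mir-87 (WBGene00003315, V:12038688-12038781, minus strand), a miRNA gene inside an intron of kup-1 on the same strand. Its signal value was 26.3 (pooled rank 131) at a summit 153 bp downstream of the start, and a further, weaker pooled region also lay in the window. The start window of the non-coding gene F10C2.11 holds the same summit. In replicate 1 the value was 14.4 (rank 497). In replicate 3 the strongest region, at 9.43, lay 834 bp upstream, and the region within 2 bp of the replicate 1 summit had only 4.77 (rank 27068). The mir-87 site was thus strong in replicate 1 and near the floor of the list in replicate 3. Its seed partner mir-233, in an intron of W03G11.4 on X, showed the reverse order, with 5.99 in replicate 1 (rank 14521), 12.1 in replicate 3 (rank 751) and 13.8 in the pooled list. Both replicate summits of mir-233 lay 7 bp apart, at 85 and 78 bp downstream of the start. The third gene with this seed, mir-356a, had no pooled region.

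The next values were at mir-8187 and mir-2211. mir-8187, in an intron of ech-7 on chromosome I, had a pooled value of 24.5 (rank 206) at 985 bp upstream, just inside the window. Neither replicate had a summit in that window. Replicate summits just beyond its edge were not looked for, so replicate support for the pooled region is not known. The intergenic gene mir-2211, also on I, had a pooled value of 22.3 (rank 377) at 30 bp downstream, with 9.91 in replicate 1 and 6.23 in replicate 3. At the edge of the window, mir-41 (12.6 at 973 bp upstream) and mir-392 (13.7 at 961 bp) were just inside, while mir-2213 (13.7 at 1040 bp) and mir-8190 (16.1 at 1044 bp) were just outside.

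mir-360, an intergenic gene on X (X:5919149-5919258, plus strand), had a pooled value of 21.8 (rank 444) at 94 bp upstream. Its replicate values were 5.84 (rank 15386) and 11.8 (rank 886), in replicates 1 and 3. The same summit lies in the start window of capa-1, a neuropeptide gene, and of the non-coding gene Y23B4A.5, so it cannot be assigned to 1 of them. mir-62 lies in an intron of ugt-50, a UDP-glucuronosyltransferase gene on X. It had 20.7 in the pooled list (rank 608), 8.95 in replicate 1 (rank 4554) and 6.95 in replicate 3 (rank 11022). Its replicate summits were 2 bp apart, at 527 and 529 bp upstream, and no window of another gene outside the miRNA and piRNA classes held the pooled summit. Of the genes with the mir-62 seed, mir-90 had a pooled value of 12.8 (rank 7991) and mir-50 had none. mir-8204 overlaps an exon of F21A9.1 on I and had 20.5 in the pooled list, 14.4 in replicate 1 and 10.9 in replicate 3. That summit also lay in the start windows of the protein-coding genes F21A9.1 and F21A9.2.

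The sequence within 100 bp of the pooled summit is given for mir-87, mir-360 and mir-241, to show the bases under strong member regions, on the strand of the gene. TAATTA and TAATTG, core words of many homeodomain proteins, were searched on both strands and are in capitals.
mir-87, V:12038528-12038728, minus strand: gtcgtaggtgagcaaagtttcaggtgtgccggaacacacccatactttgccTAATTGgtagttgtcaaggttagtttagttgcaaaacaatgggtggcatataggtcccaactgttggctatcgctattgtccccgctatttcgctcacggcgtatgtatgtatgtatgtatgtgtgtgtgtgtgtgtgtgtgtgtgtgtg
mir-360, X:5918955-5919155, plus strand: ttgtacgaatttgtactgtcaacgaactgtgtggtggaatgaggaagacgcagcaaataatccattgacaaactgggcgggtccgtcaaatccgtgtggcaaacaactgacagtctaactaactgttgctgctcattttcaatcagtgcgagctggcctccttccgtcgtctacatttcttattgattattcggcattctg
mir-241, V:14366252-14366452, minus strand: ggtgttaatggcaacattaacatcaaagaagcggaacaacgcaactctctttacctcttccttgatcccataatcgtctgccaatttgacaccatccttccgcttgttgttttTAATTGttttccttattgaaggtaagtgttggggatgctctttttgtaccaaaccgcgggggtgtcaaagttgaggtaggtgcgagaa
The mir-87 and mir-241 stretches each hold 1 homeodomain word and the mir-360 stretch holds 0. The mir-87 stretch runs through the 3′ part of the hairpin, with the mature strand near its 5′ end, into a run of GT repeats. The mir-241 stretch ends within the mature strand of mir-241.
Homeodomain words occurred at 10 of the 41 distinct member regions (24.4%, 95% interval 12.4 to 40.3), and at 18.3% of all 10489 pooled regions. GAGAGAGA and GAGAAAGA, searched on both strands, occurred at 0 of 41 and at 5.85% of all pooled regions, and TGATAA at 8 of 41 (19.5%) and 15.1%. The intervals of the homeodomain words and of TGATAA (8.82 to 34.9) include the shares over the pooled list, and the interval of the GAGA words reaches 8.6%. Median GC content within 100 bp of the summit was 39.8% at the member regions and 39.8% over the pooled list. A word match is a description of letters and no sign of binding.

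Genes of developmental timing were examined as a list of 6: lin-4, let-7, mir-48, mir-84, mir-241 and mir-237. Pooled regions were found at 3 of 6, beside 11.6% of all genes and 18.2% of other non-coding genes. Replicate 1 regions were found at 3 (33.9% and 40.1%) and replicate 3 regions at 3 (28.0% and 38.2%). With 6 genes, counts of 3 are too few for a comparison with the pooled or the replicate backgrounds. mir-241, a let-7 family gene that acts with mir-48 and mir-84 in the early larval stages, had a pooled value of 17.3 (rank 1854) at 69 bp upstream. Its values were 7.06 in replicate 1 (rank 9632) and 13.4 in replicate 3 (rank 330), with summits 213 and 79 bp upstream. mir-48 lies downstream of mir-241 on the same strand of chromosome V. It had a pooled value of 14.6 (rank 4521) at 641 bp upstream and 15.1 in replicate 1 (rank 384, q = 0.0039), the highest value of any member in that list, and no region in replicate 3. The neighbours were therefore each strong in a different replicate.

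lin-4, in an intron of F59G1.4 on chromosome II, had 12.3 in the pooled list (rank 9156) and 12.1 in replicate 1 (rank 1256), and no region in replicate 3. The lin-4 pooled and replicate 1 summits lay 494 and 612 bp upstream. mir-237, which shares its seed, had none in the 3 lists. let-7 had a region in replicate 3 alone, with a value of 8.22 (rank 6015) at 140 bp upstream of the annotated start, which for let-7 is that of a longer primary transcript. mir-84 likewise had 6.56 in replicate 3 alone (rank 12610), 337 bp upstream. The let-7 seed occurs in 5 members, and the remaining one, mir-795 on chromosome I, had 12.8 in the pooled list, 9.46 in replicate 1 and 5.62 in replicate 3. Of the 5, only mir-241 and mir-795 had summits of both replicates within 200 bp.

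**Figure D2:**
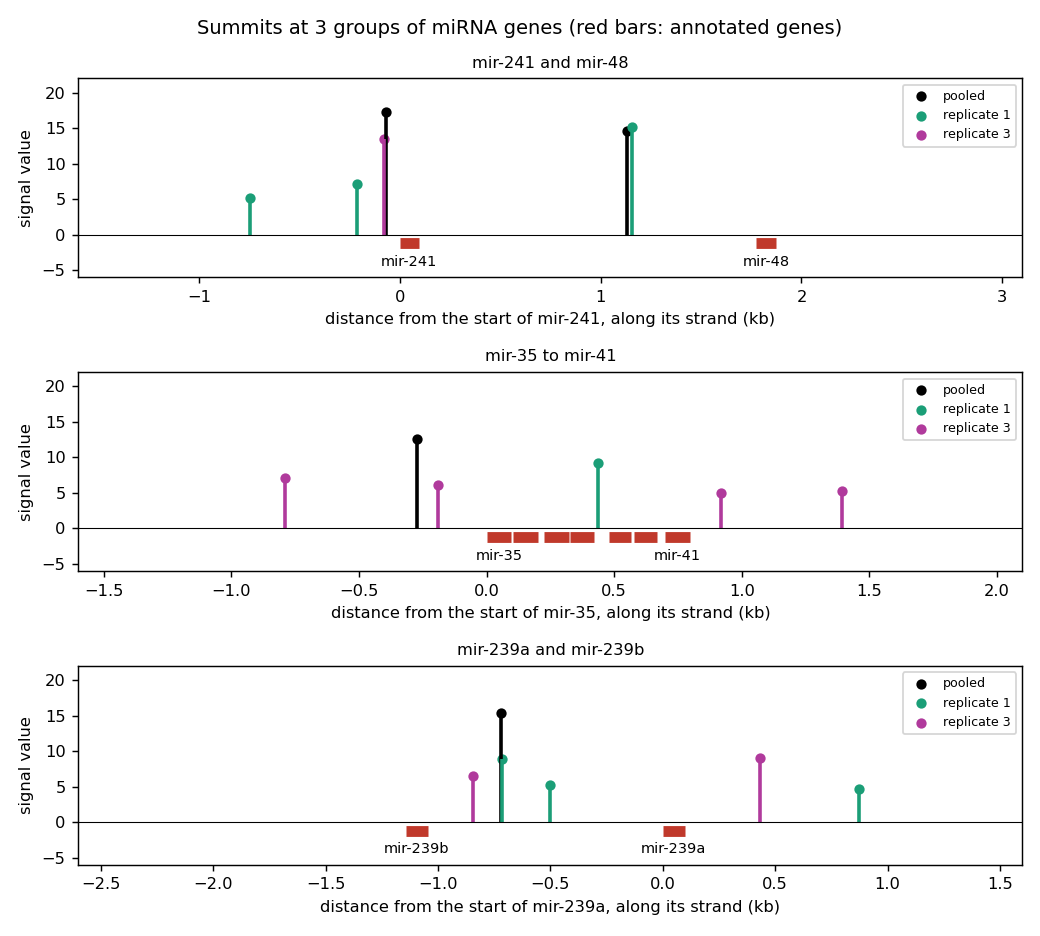
Summits of the pooled list and of each replicate around mir-241 and mir-48, mir-35 to mir-41, and mir-239a and mir-239b. The x axis is the distance in kb from the start of the first gene along its strand, the height is the signal value within each list, and red bars are the annotated genes; the pooled summit at 17.3 lies next to a replicate 3 summit at mir-241, and the pooled summit at 14.6 next to a replicate 1 summit upstream of mir-48.

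All 8 genes of the mir-35 family, which is needed in the embryo, had a pooled region, but these were 2 regions. The pooled shares were 11.6% over all genes and 18.2% over other non-coding genes, and the 8 genes are not separate counts. mir-35 to mir-41 lie within 1 kb in an intron of Y62F5A.9, on the opposite strand, and share a pooled region of 12.6 (rank 8365) at 273 bp upstream of mir-35. Replicate 1 had 9.16 (rank 4170) within the cluster, 437 bp downstream of the start of mir-35, and replicate 3 had 7.14 at 790 bp and 6.09 at 191 bp upstream. mir-42, at another site on chromosome II, shared its pooled region of 12.2 (rank 9359) with mir-43 and mir-44, whose seeds differ from its own. That region had a value of 7.12 in replicate 1 (rank 9398), and the window of mir-42 held no region in replicate 3. At none of the 8 genes did summits of the replicates lie within 200 bp of each other.

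The list around mir-58, an abundant miRNA related to insect bantam, was put together by name and holds 9 genes: mir-58a, mir-58b, mir-58c, mir-80, mir-81, mir-82 and mir-2209a to mir-2209c. It is not a single seed group, since 6 of them share the seed GAGAUCA and mir-58a, with GAGAUCG, does not. mir-58a alone of the 9 had a pooled region, and the 6 genes with the shared seed had 0. Pooled background shares were 11.6% of all genes and 18.2% of other non-coding genes, from which such small counts cannot be set apart. Replicate 1 regions were found at 2 of the 9 (33.9% and 40.1%) and replicate 3 regions at 3 (28.0% and 38.2%). mir-58a lies in an intron of Y67D8A.2 and had 13.7 in the pooled list, 7.78 in replicate 1 and 9.34 in replicate 3. Of 7 stress and ageing genes, 4 had a pooled region, at 3 distinct regions, beside 11.6% of all genes and 18.2% of other non-coding genes. Replicate 1 regions were found at 3 of the 7 (33.9% and 40.1%) and replicate 3 regions at 4 (28.0% and 38.2%). With 7 genes these counts are too few for a comparison with the backgrounds. mir-239a and mir-239b face away from each other on X and share 1 region between them, with 15.4 in the pooled list (rank 3435), 8.91 in replicate 1 and 6.49 in replicate 3, on summits 129 bp apart in the replicates. The snoRNA gene C34E11.20 and the non-coding gene C34E11.9 also have that pooled summit in their start windows. mir-238, the third gene with the mir-239 seed, had 11.9 in the pooled list and a replicate 1 region of rank 1996 (q = 0.033). mir-71, a lifespan gene in an intron of ppfr-1 on I, had 13.4 in the pooled list and 11.2 in replicate 3, at summits 102 and 768 bp upstream that are not the same site.

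mir-124, a conserved miRNA of the nervous system in an intron of trpa-1, had 14.7 in the pooled list (rank 4366) at 72 bp upstream. In replicate 3 it had 12.7 (rank 518) at 75 bp upstream. Replicate 1 had its highest value, 11.4 (rank 1644), at 551 bp upstream and only 4.08 (rank 29131) within 5 bp of the replicate 3 summit. lsy-6 and mir-791, which act in sensory neurons, had no region in the 3 lists, and neither had mir-1, the miRNA of muscle. Of the intestinal list, mir-60 had none, and mir-243 (7.08) and mir-70 (5.14) had a replicate 3 region alone. mir-34, of the stress list, had none.

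The 2 replicates were then compared over the members. Regions of both replicates occurred at 53 members, of replicate 1 alone at 35, of replicate 3 alone at 55 and of neither at 111. This split was not counted over all genes or other non-coding genes, so it is no trait particular to the members. Taken singly, the replicate 1 and replicate 3 lists had a region at 33.9% and 28.0% of all genes. Summits of both lay within 200 bp of each other at 29 members (11.4%, 95% interval 7.78 to 16), with 6.71% of all genes and 10.7% of the other non-coding genes. As with the pooled list, this was above all genes and close to non-coding genes. These 29 genes are 27 distinct sites, and 22 of the genes had a pooled region. The 7 genes without one were mir-79, mir-8190, mir-228, mir-250, mir-61, mir-8196a and mir-4812. Of these, mir-228 had 8.14 in replicate 1 and 6.17 in replicate 3. For mir-8190 a pooled summit of 16.1 lay just outside the window, at 1044 bp upstream. mir-796 on X had 5.55 and 10.6 in replicates 1 and 3, on summits 14 bp apart, and 15.6 in the pooled list. mir-798, in an intron of ilcr-1 on the opposite strand, had 9.26 and 6.74 on summits 8 bp apart, and 16.4 in the pooled list. The others were mir-2, mir-800, mir-5547, mir-1820, mir-5553, mir-63, mir-2207, mir-1020 and those described above. Across the 27 sites the signal values of the replicates gave Spearman's rho of -0.252, a description over sites that share both libraries and may share a control.

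**Figure D3:**
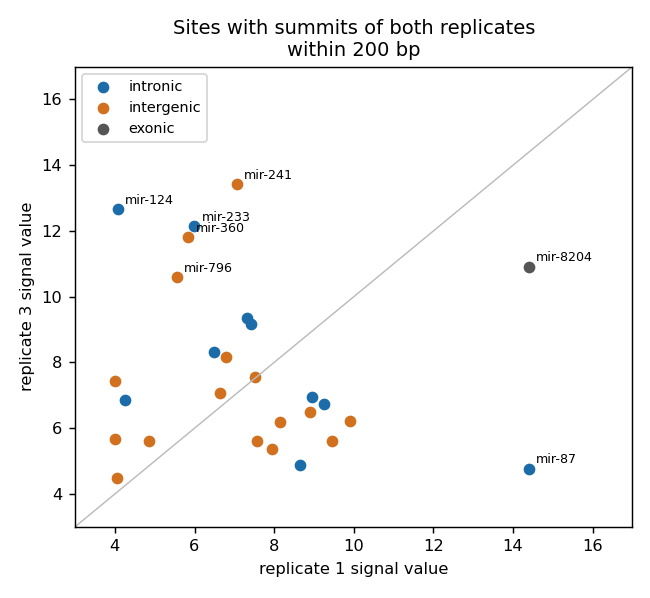
Signal value in replicate 1 (x axis) and replicate 3 (y axis) at the 27 distinct member sites where summits of both lay within 200 bp, coloured by gene position; the line marks equal values. mir-87 is high in replicate 1 alone, mir-241, mir-124, mir-233 and mir-360 in replicate 3 alone, and mir-8204 has values of 14.4 and 10.9.

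The strongest member region of any replicate list was at mir-257, an intergenic gene on chromosome V (V:17140668-17140769, plus strand). It had 22.7 in replicate 3, which is rank 6 of 30000, with q = 0.023, and no region in its window in the replicate 1 list. The pooled value was 12.4 (rank 8927) at 78 bp upstream, with the replicate 3 summit 151 bp upstream. The bases within 100 bp of that replicate 3 summit are shown because no other member region ranked as high, and they hold 0 homeodomain words.
mir-257, V:17140417-17140617, plus strand: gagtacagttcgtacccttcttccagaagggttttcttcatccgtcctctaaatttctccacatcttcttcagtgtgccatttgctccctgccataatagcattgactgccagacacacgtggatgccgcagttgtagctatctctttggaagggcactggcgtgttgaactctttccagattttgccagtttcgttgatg
mir-794 on I (12.4, rank 596) and mir-1832a on III (11.9, rank 841) were also among the 1000 strongest of replicate 3, without a pooled region. mir-75 on X had 13.0 in replicate 1 (rank 885), 13.0 in the pooled list and no region in replicate 3. mir-85, in an intron of F49E12.8 on the opposite strand, had 11.6 in replicate 1 and 15.1 in the pooled list, again without replicate 3.

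Intronic miRNA genes were compared with intergenic ones to see whether position relative to a protein-coding gene went with signal. There were 93 intronic members, which lie within the span of a protein-coding gene and overlap no exon, 149 intergenic members and 12 that overlap an exon. In the pooled list 24 of 93 intronic genes (25.8%, 95% interval 17.3 to 35.9) and 24 of 149 intergenic genes (16.1%, 10.6 to 23) had a summit. Among other non-coding genes the shares were 19.6% of 3240 intronic and 18.0% of 4887 intergenic genes. The difference between intronic and intergenic miRNA genes was 9.7 percentage points, with an interval from -0.617 to 20.7 that includes 0. The 24 intronic genes were 18 distinct regions and the 24 intergenic genes 21. The 7 genes mir-35 to mir-41 share 1 region among the intronic genes, and mir-42 to mir-44 and the pair mir-239a and mir-239b do so among the intergenic ones. Without mir-35 to mir-41 the intronic share was 17 of 86 (19.8%) and the difference 3.66 points.

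The same comparison in each replicate gave 33 of 93 (35.5%) and 50 of 149 (33.6%) in replicate 1, with 39.8% and 40.9% for the other non-coding genes. In replicate 3 it gave 45 of 93 (48.4%, 37.9 to 59) and 56 of 149 (37.6%, 29.8 to 45.9), with 41.1% and 36.6%. The intronic share was the higher in each list, and the intervals overlapped in each. The order was not kept under another definition of a host: when any gene outside the miRNA and piRNA classes counted as host, 13 of 91 intronic genes (14.3%) and 21 of 114 intergenic genes (18.4%) had a pooled summit. These are fewer genes than the 93 and 149 above, since members over an exon or an edge of such a host were left out. Genes with a pooled summit, 24 in each class above, were fewer as well. Sites with both replicates within 200 bp occurred at 10 intronic genes (10.8%) and 18 intergenic genes (12.1%), beside 11.4% of intronic and 10.6% of intergenic other non-coding genes.

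**Figure D4:**
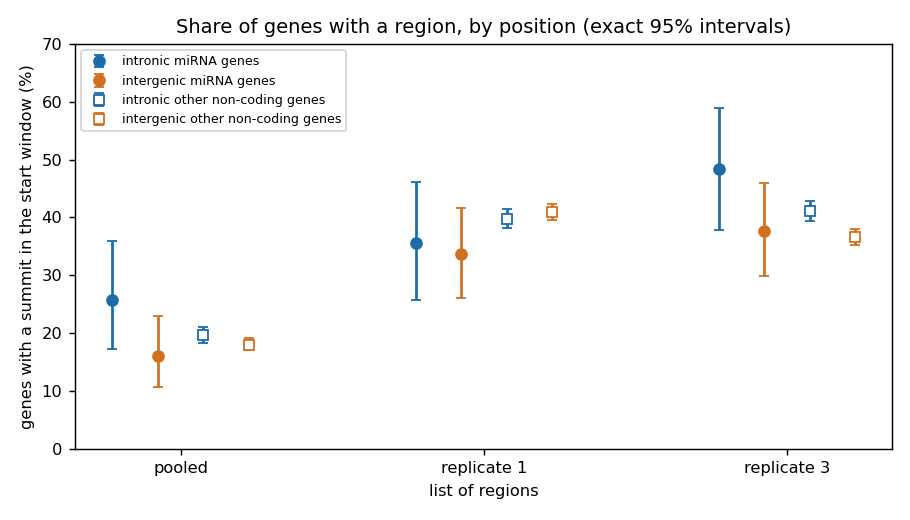
Share of genes with a summit in the start window (y axis, percent, with exact 95% intervals) in the 3 lists, for intronic and intergenic miRNA genes (filled circles) and for intronic and intergenic other non-coding genes (open squares). The intronic miRNA genes are higher in each list, at 25.8% against 16.1% in the pooled list, and the intervals overlap.

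The pooled values of the intronic genes ran from 12.2 to 26.3 with a median of 12.7, and those of the intergenic genes from 11.9 to 22.3 with a median of 13.9. The intronic median includes the region of 12.6 once for each of the 7 genes mir-35 to mir-41. Over distinct regions the pooled medians were 13.6 for 18 intronic and 14.0 for 21 intergenic regions. In replicate 1 the medians per gene were 7.41 and 6.81, and in replicate 3 they were 6.74 and 6.07, so the order of the medians differed between the pooled list and the replicates. At or above the median signal of the pooled list there were 7 of 93 intronic genes (7.53%) and 11 of 149 intergenic genes (7.38%). Start windows of intronic genes with a pooled region had a median GC content of 45.0%, and those without one 37.6%. For intergenic genes the values were 37.7% and 35.1%, and over all nuclear genes 33.8%. The 45.0% counts the overlapping windows of mir-35 to mir-41 once for each of the 7 genes. In these medians per gene, GC content thus moved with both position and the presence of a region, and its part in the counts was not tested.

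Hosts on the same strand were found for 66 intronic genes, of which 15 (22.7%) had a pooled summit. Of the 27 genes whose hosts lay on the opposite strand, 9 (33.3%, 95% interval 16.5 to 54) had one, 7 of them the mir-35 cluster. No pooled summit of an intronic gene lay in the start window of its host or of any other protein-coding gene. Of the intergenic genes with a pooled region, 4 shared the summit with a protein-coding start window: mir-360 with capa-1, mir-800 with R04A9.3, mir-5553 with C46F2.1 and mir-392 with F54B11.5. In all, 24 of the 51 genes, at 21 distinct summits, had their strongest pooled summit in no start window of a gene outside the miRNA and piRNA classes. One intronic gene, mir-1828, lies in pash-1, which encodes a partner of the enzyme that cuts miRNA hairpins, and had 12.2 in the pooled list, 10.9 in replicate 1 and 5.13 in replicate 3. Its replicate 1 summit, 995 bp upstream, was not at the pooled site, 364 bp upstream.

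The position of the summits within the window was close to that of all genes. The strongest pooled summit lay within 200 bp of the start at 19 of 51 members (37.3%) and at 39.9% of all genes with a pooled region. In replicate 1 the shares were 36.4% and 36.2%, and in replicate 3 they were 34.3% and 37.1%. Intronic and intergenic genes each had 9 such summits in the pooled list. The median pooled summit lay 350 bp upstream of the start.

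**Figure D5:**
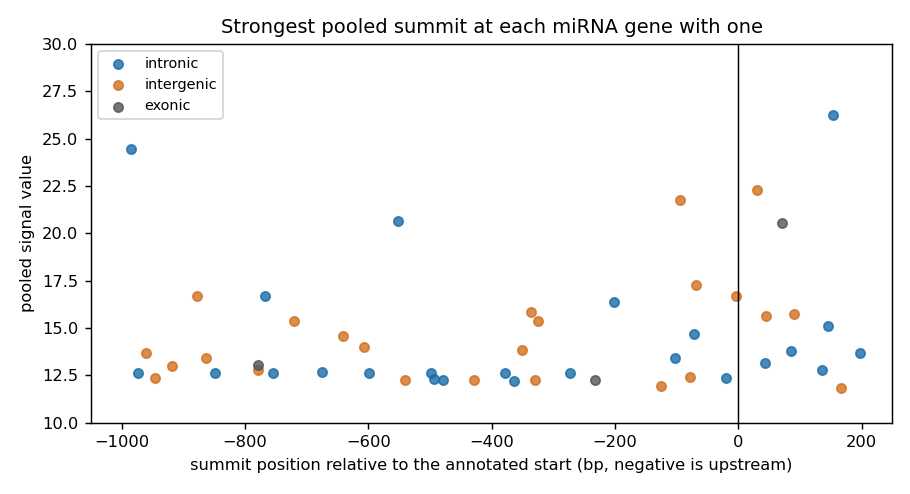
Position of the strongest pooled summit relative to the annotated start (x axis, bp) and its signal value (y axis) at the 51 miRNA genes with one, coloured by gene position. Genes that share a summit appear once each; values above 20 lie both upstream and downstream of the start, with mir-87 at 26.3 on the downstream side.

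By chromosome, pooled regions were found at 16 of 49 members on II (32.7%), 8 of 33 on I (24.2%), 6 of 27 on III (22.2%), 13 of 70 on X (18.6%), 4 of 28 on V (14.3%) and 4 of 47 on IV (8.51%). The count on II includes the mir-35 cluster and the mir-42 to mir-44 group, 10 genes at 2 regions. The 95% intervals were wide and overlapped even between II (19.9 to 47.5) and IV (2.37 to 20.4). Shares of all genes were not counted for single autosomes, so the chromosomes are not ranked here. On X the members' share (95% interval 10.3 to 29.7) was set beside 16.6% of all X genes, and on autosomes 20.7% (15 to 27.2) beside 10.8% of all autosomal genes. The members' shares on X and on autosomes had overlapping intervals. The gene totals beside them again include piRNA genes and pseudogenes, whose shares by chromosome were not examined.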

How the data were processed

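Region lists of CEH-9 ChIP-seq in L3 larvae were used as deposited by the authors: 1 list for each of 2 replicates, 1 for the pooled replicates and the reproducible set, all on build ce11. Per the deposited file descriptions, each list was called against a control alignment. The aligner, caller and scaling were not given in the sources used here. In these files, column 7 holds the caller's signal value, deposited without a unit, and column 9 q-values as −log10, going by the narrowPeak layout that the deposited descriptions name. Every region ended within its WBcel235 chromosome (0 beyond). Lists on ce10 were not used, since coordinates were not converted.

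Genes, hosts and windows came from Ensembl release 115, and sequences from RefSeq's WBcel235. Non-coding genes used for comparison excluded pseudogenes, piRNA and miRNA genes. Ties took the better rank. Analyses used Python 3.11.15, pandas 2.3.3 and scipy 1.17.1, and window assignment was tested on simulated summits. Intervals of a difference combined Wilson intervals (Newcombe's method). The genes named were the 25 members with the highest pooled value, those with both replicates within 200 bp, the role lists and those at the window's edge; mir-257, mir-794, mir-1832a, mir-75, mir-1828 and other genes with small q-values were named after their values were seen. The members and lists were chosen with earlier results of these data known. Nothing in the labels says more of the replicates than that they are biological. Alternatives changed the window, the regions used, the host definition, the unit counted, the matching distance, and each replicate left out.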

Additional observations from a re-analysis of the deposited data

How the results depend on the processing

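The intronic share remained above the intergenic share under 12 of 14 alternatives, of which merged loci, the set without mir-35 to mir-41 and the full replicate lists were added after seeing the data. The exceptions were a q-value under 0.05 and any gene outside the miRNA and piRNA classes as host. The first left 0 members and a difference of 0. The second compared only 91 intronic and 114 intergenic genes and reversed the difference to -4.14 percentage points. The cause of the reversal was not tested. Among the 12, the difference ran from 0.144 points at or above the median signal to 13.3 with windows from 2000 bp upstream to 500 bp downstream. It was 1.93 in the full replicate 1 list. The alternatives reuse the same genes and lists, and the interval of the reported difference, -0.617 to 20.7, includes 0. Their tally is therefore no measure of certainty. With each replicate left out the difference was 4.73 to 7.95 points and the number of members with a region 40 to 48. The number of members with a pooled summit was 27 with windows from 500 bp upstream to 100 bp downstream, 83 with windows from 2000 bp to 500 bp and 19 at or above the median signal, since windows and lists are shorter or longer. For the same reason, replicate 1 gave 53 and 136 members with the shorter and longer window, replicate 3 gave 65 with the shorter one, and lists as short as the pooled one gave 48 and 40. Members with both replicates within 200 bp numbered 16 and 44 with these windows, 17 when summits had to lie within 100 bp, and 5 in the shortened lists, so most such sites rest on weak regions of at least 1 replicate. Of the 25 named genes with the highest pooled values, 11 had no region in the shorter window. The median pooled signal of 13.4 became 16.7 at or above the list median, by construction, and 8.34 to 8.68 with a replicate left out, which uses the other replicate's strongest regions on their own scale. No median could be had at a q-value under 0.05. The depth of the libraries is unknown. No paired analysis was possible because there is 1 group.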
